A study of Homo sapiens with 6 samples.

Results

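The BCL2 family described here comprised 10 genes, taken as the rows of the deposited count table whose NCBI symbol is a listed family gene, out of 28307 genes in the table. They were 4 survival genes (BCL2, BCL2L1, MCL1 and BCL2A1), 2 effector genes (BAX and BAK1) and 4 BH3-only genes (BCL2L11, BID, BAD and BBC3). Their transcripts were counted by RNA sequencing in OCI-AML3 cells. This established human line from an acute myeloid leukaemia is known for its mutant NPM1 allele (NPM1c), although its genotype label reads WT. The 3 siNPM1c libraries came from cells transfected with an siRNA against NPM1c, and the 3 siControl libraries from cells given a control siRNA. Both groups received Lipofectamine RNAi MAX with 10 nM siRNA, were harvested on day 3 and carry the same batch label. Only 1 cell line was used, and its labels do not say whether replicates were separate cultures, so p-values measure the spread between libraries, which may be technical.

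Proteins of the BCL2 family decide whether the outer membrane of the mitochondrion is breached during apoptosis. Survival proteins hold the pore-forming effectors BAX and BAK in check, and BH3-only proteins occupy the groove of survival proteins or activate the effectors directly. In acute myeloid leukaemia, BCL2 and MCL1 are the survival proteins most studied as drug targets, and the BCL2 inhibitor venetoclax is in clinical use.

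Library totals ran from 15075235 to 25190122 counts. Genes of ribosomal RNA took 70.2% ± 0.81 of the counts in siNPM1c libraries and 63.8% ± 0.75 in siControl libraries (SD, n = 3 each). Protein-coding genes had 3414688 to 6695652 counts per library. Their share was 21.8% ± 0.495 in siNPM1c and 28.5% ± 0.455 in siControl libraries (SD, n = 3 each), without overlap. NPM1, the siRNA target, measured 23.2 ± 1.03 CPM in siNPM1c and 50.1 ± 0.985 CPM in siControl libraries (counts scaled to a common library size, CPM, with TMM factors, which set the bulk of genes level between libraries). Transcripts of both NPM1 alleles were counted together. Of the listed myeloid markers, LYZ, AZU1, ANPEP, CD33, FLT3 and MPO were detected and passed the low-count filter, while CD34 and KIT did not. The T cell markers CD3E, CD3D and CD2 summed to at most 0.144 CPM in any library and erythroid markers to at most 0.111 CPM, and CD3D, HBB and PF4 had no count in any library.

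All 10 family genes passed the low-count filter. In edgeR's quasi-likelihood test over 12938 genes, with TMM scaling and Benjamini-Hochberg adjustment over all of them, 3 family genes were higher and 1 was lower in siNPM1c libraries at an adjusted p under 0.05. The 3 higher genes were BCL2, BCL2L1 and MCL1, all of the survival class, and the lower gene was BCL2L11, which encodes the BH3-only protein BIM. These directions hold relative to TMM scaling. Scaled by library sizes alone, the median of all genes moved by -0.47 log2 and 71.5% of genes were called lower. There BCL2 turned negative without a call, MCL1 was called lower (-0.29, edgeR adjusted p 3.76e-13), BCL2L1 lost its call and BCL2L11 remained lower. Under TMM 42.7% of all genes were called, 21.3% as higher and 21.4% as lower. The share of the family called under TMM, 4 of 10, lay near that background. By class, 3 of 4 survival genes were higher and 0 lower, and of 6 death genes 0 were higher and 1 was lower. The median log2 fold change was 0.38 over the survival genes, 0.03 over the death genes and -0.01 over all genes tested. In 4 of 10 family genes the libraries of the groups did not overlap, against 49.2% of all genes.

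**Figure D1:**
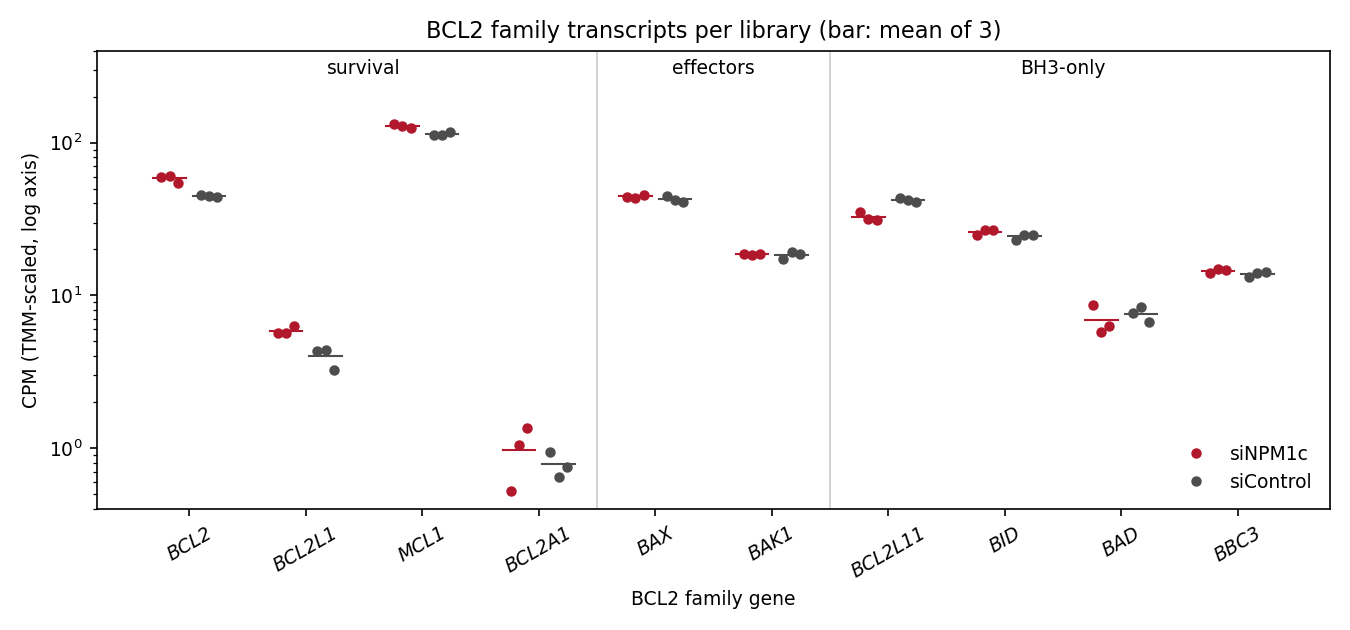
CPM of each BCL2 family gene (log axis, TMM-scaled) in the 3 siNPM1c libraries (red, left) and the 3 siControl libraries (grey, right), with a bar at each mean. The groups are separate for BCL2, BCL2L1, MCL1 and BCL2L11 and overlap for the other 6 genes. On library sizes alone BCL2 turns negative without a call and MCL1 is called lower.

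The BCL2L11 promoter is shown first because this was the family gene that was lower, and the BAX promoter because it carries the most copies of a searched motif among the family. Each window runs from 250 bases before to 50 bases after the RefSeq start (GRCh38.p14), and 9 of the 10 family genes matched an entry. Both windows are on the plus strand, BCL2L11 at chr2:111120664-111120963 and BAX at chr19:48954625-48954924. Capitals mark the FOXO motif TGTTTAC, which reads GTAAACA on this strand, in BCL2L11 and the MYC E-box CACGTG in BAX.
BCL2L11: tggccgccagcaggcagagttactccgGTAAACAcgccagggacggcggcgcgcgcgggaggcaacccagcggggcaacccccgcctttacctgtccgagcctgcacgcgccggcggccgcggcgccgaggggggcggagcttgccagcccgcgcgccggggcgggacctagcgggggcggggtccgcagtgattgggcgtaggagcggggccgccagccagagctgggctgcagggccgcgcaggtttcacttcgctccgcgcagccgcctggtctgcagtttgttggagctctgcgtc
BAX: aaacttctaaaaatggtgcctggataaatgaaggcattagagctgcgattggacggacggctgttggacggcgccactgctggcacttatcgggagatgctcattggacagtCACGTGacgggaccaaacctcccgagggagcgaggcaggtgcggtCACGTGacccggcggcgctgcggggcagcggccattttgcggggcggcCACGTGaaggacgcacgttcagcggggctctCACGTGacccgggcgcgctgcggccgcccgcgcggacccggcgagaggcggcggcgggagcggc

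The FOXO motif began 223 bases before the BCL2L11 start and was present, on either strand, in 3.4% of 27305 promoter windows and in 1 of the 9 family windows. The E-box occurred 4 times in the BAX window, beginning 138, 93, 45 and 14 bases before the start. At least 1 E-box was found in 7.43% of all windows and at least 4 in 0.0183%, and BBC3 was the other family gene with one. The STAT motif TTCNNNGAA (7.9% of windows) and the ATF4 motif TGATGNAA (3.7%) were each found in BCL2A1 only among the 9, the PU.1 motif GAGGAAG (13.4%) in BCL2A1, BAK1 and BID, and the E2F motif TTTCGCGC (0.5%) in none. A match is a description of letters and not evidence of binding.

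BCL2 (Entrez gene 596, chromosome 18, 63123346 to 63320090 on GRCh38.p14) encodes the founding survival protein, which blocks apoptosis at the mitochondrial membrane. Its libraries measured 60.0, 60.5 and 54.4 CPM in siNPM1c, against 45.7, 44.9 and 44.0 CPM in siControl. Every siNPM1c library lay above every siControl library. BCL2 was 1.30-fold higher under TMM (log2 fold change 0.38 ± 0.04, SE, edgeR adjusted p 3.02e-14), and at -0.09 log2, not called, on library sizes alone. Raw counts, not adjusted for depth, were 798, 1263 and 805 in siNPM1c and 822, 1239 and 817 in siControl libraries. Totals over all genes were 15338450, 25190122 and 17352206 in siNPM1c, against 15075235, 23828944 and 15846060 in siControl libraries. Protein-coding totals were 3414688, 5358525 and 3778153 in siNPM1c, against 4372104, 6695652 and 4505331 in siControl libraries.

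MCL1 (Entrez gene 4170, chromosome 1, 150574558 to 150579610) encodes a short-lived survival protein on which many myeloid cells depend. It was the most counted family gene, at 133, 129 and 125 CPM in siNPM1c and 112.5, 112 and 118 CPM in siControl libraries. The groups were separate by a narrow margin. Under TMM the rise was 1.13-fold (log2 fold change 0.17 ± 0.03, SE, edgeR adjusted p 2.76e-07). On library sizes alone MCL1 was instead called lower, at -0.29 log2 (edgeR adjusted p 3.76e-13). Of all genes tested, 61.6% had a larger absolute change than MCL1.

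BCL2L1 (Entrez gene 598, chromosome 20, 31664452 to 31723963), whose main product is the survival protein BCL-XL, had the largest fold change among the called family genes. It measured 5.64, 5.65 and 6.28 CPM in siNPM1c, against 4.34, 4.42 and 3.23 CPM in siControl libraries. The groups did not overlap, and siControl replicate 3 lay below the other two. The rise was 1.45-fold (log2 fold change 0.53 ± 0.14, SE, edgeR adjusted p 0.000841) under TMM and 0.06 log2 on library sizes alone. Without siControl replicate 3 the log2 fold change was 0.42, and over all alternatives the adjusted p ranged from 0.000322 to 0.687. The opposite-strand gene ABALON overlaps 43% of the exon length of BCL2L1, and reads of the pair cannot be told apart here, as no source used here says whether counting was strand-specific.

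BCL2A1 (Entrez gene 597, chromosome 15, 79960892 to 79971196), a survival gene known as an NF-kB target, was barely detected. Its raw counts were 7, 22 and 20 in siNPM1c and 17, 18 and 14 in siControl libraries. The groups overlapped, and the log2 fold change was 0.38 ± 0.33 (SE, edgeR adjusted p 0.365), with a 95% interval from -0.27 to 1.02. This estimate was as large as that of BCL2 (0.38), but not called. With a library left out it ran from 0.13 (without siNPM1c replicate 3) to 0.63 (without siNPM1c replicate 1). At this depth a change of the size seen for BCL2 could not be detected.

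BCL2L11 (Entrez gene 10018, chromosome 2, 111120914 to 111168445) encodes BIM, a BH3-only protein that binds every major survival protein and can activate BAX and BAK directly. It measured 35.2, 31.6 and 31.3 CPM in siNPM1c, against 43.3, 42.2 and 40.9 CPM in siControl libraries. Every siNPM1c library was below every siControl library. The gene fell by 0.37 on the log2 scale (SE 0.05, edgeR adjusted p 1.48e-10) under TMM and by 0.84 on library sizes alone. It was the 1 family gene called in the same direction under both scalings. Library sizes alone moved the median gene by -0.47 log2 and called 71.5% of all genes lower. A gene lower under TMM would therefore stay lower there. Of all genes tested, 17.3% had a lower log2 fold change. The opposite-strand gene MIR4435-2HG overlaps 10.9% of its exon length and had a log2 fold change of -0.23 ± 0.14 (SE, edgeR adjusted p 0.194).

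The effectors did not pass the test. BAX (Entrez gene 581, chromosome 19, 48954875 to 48961798) measured 44.4, 43.6 and 45.7 CPM in siNPM1c and 44.7, 42.2 and 40.8 CPM in siControl libraries. BAK1 (Entrez gene 578, chromosome 6, 33572552 to 33580276) measured 18.6, 18.4 and 18.6 CPM in siNPM1c and 17.4, 19.3 and 18.6 CPM in siControl libraries. The groups overlapped for both. The 95% interval of the log2 fold change ran from -0.03 to 0.16 for BAX and from -0.14 to 0.14 for BAK1, so under TMM both intervals lay below the estimate for BCL2 and above that for BCL2L11. Reads of BAK1 can also fit its 2 named pseudogenes.

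Of the other BH3-only genes, none passed the test in edgeR, and their groups overlapped. BID (chromosome 22, 17734138 to 17774665), whose protein is activated by caspase-8 downstream of death receptors, averaged 26.1 ± 1.12 CPM in siNPM1c and 24.3 ± 1.12 CPM in siControl libraries (SD, n = 3 each). BBC3 (chromosome 19, 47220824 to 47232860), the gene of the p53-induced protein PUMA, averaged 14.5 ± 0.490 CPM in siNPM1c and 13.8 ± 0.485 CPM in siControl libraries. BAD (chromosome 11, 64269828 to 64284704), whose protein binds BCL2 and BCL-XL and is silenced by growth factor signalling, measured 8.65, 5.75 and 6.28 CPM in siNPM1c and 7.62, 8.40 and 6.68 CPM in siControl libraries. In BAD, siNPM1c replicate 1 stood above the other 5 libraries. Without that library its log2 fold change was -0.35 with an edgeR adjusted p of 0.026, against -0.18 ± 0.12 (SE, adjusted p 0.207) with all libraries. Over all alternatives the adjusted p of BAD ranged from 8.58e-08 to 0.852. The opposite-strand gene GPR137 overlaps 23.7% of the BAD exon length.

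**Figure D2:**
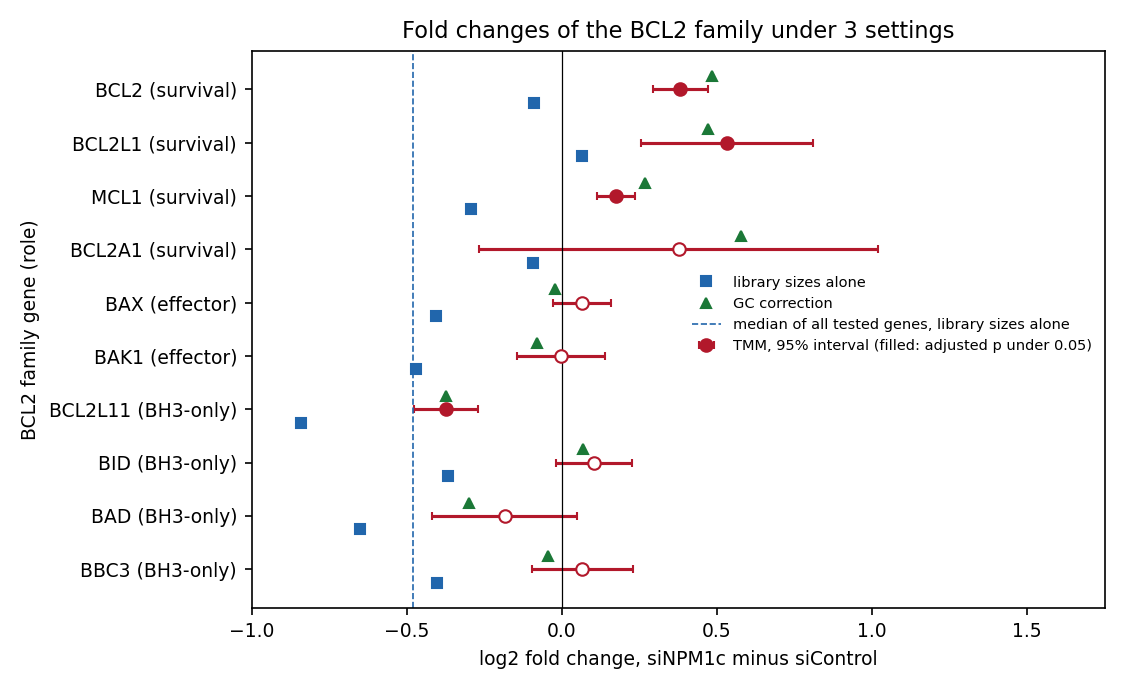
Log2 fold change (siNPM1c minus siControl) of each family gene under TMM with its 95% interval (red, filled where called), on library sizes alone (blue) and after removal of each library's GC trend (green). BCL2L11 is negative under all 3, while BCL2, BCL2L1 and MCL1 are positive under TMM and GC correction. On library sizes alone, where the median gene sits at -0.48, BCL2 turns negative without a call and MCL1 is called lower.

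Fold changes followed the GC content of transcripts across all genes, with a median log2 fold change of -0.22 in the GC-poorest of 5 equal bins of genes and 0.09 in the GC-richest. BCL2 and MCL1 are poor in GC (44.7% and 45.1%), while BAD and BBC3 are rich (64.7% and 64.4%). After removal of the GC trend the log2 fold change was 0.48 for BCL2, 0.27 for MCL1, 0.47 for BCL2L1 and -0.37 for BCL2L11, and all 4 calls were kept. BAD was then called lower (-0.30, edgeR adjusted p 0.030).

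Ratios within a library do not depend on any scaling factor, but raw counts also depend on transcript length. The summed counts of the 4 survival genes over those of the 6 death genes were 1.37, 1.393 and 1.301 in siNPM1c, against 1.095, 1.072 and 1.137 in siControl libraries. The groups were separate, and the mean ratio was 1.23 times as large in siNPM1c. MCL1 supplied 38.2% ± 0.44 of all family counts in siNPM1c and 36.5% ± 1.14 in siControl libraries, and without it the ratio was 1.36 times as large. Without BCL2L11 among the death genes it was 1.14 times as large, again with separate groups. Summed per kb of all annotated exons, survival over death averaged 0.825 ± 0.0229 in siNPM1c and 0.703 ± 0.0276 in siControl libraries. Both means were then under 1, and the siNPM1c mean was 1.17 times as large, without overlap. There were 1.71, 1.92 and 1.74 BCL2 counts per BCL2L11 count in siNPM1c, against 1.057, 1.064 and 1.075 in siControl libraries. MCL1 counts per BCL2L11 count averaged 3.95 ± 0.154 in siNPM1c and 2.72 ± 0.152 in siControl libraries, and BCL2 counts per BAX count 1.31 ± 0.105 in siNPM1c and 1.05 ± 0.0286 in siControl libraries, each without overlap. For MCL1 over BAX the groups overlapped. These ratios are descriptions without a test, since the genes were chosen with results known.

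**Figure D3:**
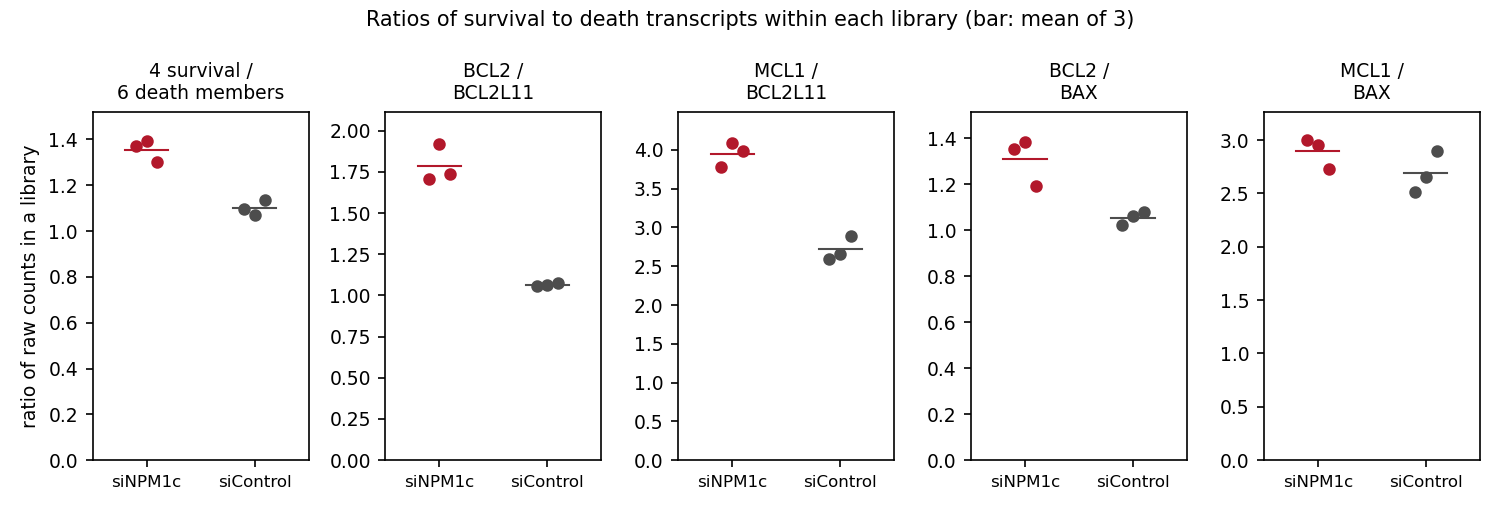
Ratios of raw counts within each siNPM1c library (red, left) and siControl library (grey, right), with a bar at each mean. The survival to death ratio, BCL2 over BCL2L11, MCL1 over BCL2L11 and BCL2 over BAX are separate between groups, and MCL1 over BAX is not.

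Per kilobase of all annotated exons, MCL1 stood highest, at 28.5 to 30.5 CPM per kb in siNPM1c and 25.7 to 27.04 in siControl libraries. BAX followed with 16.9 to 17.6 in siNPM1c and 15.8 to 17.3 in siControl, and BAK1 with 8.32 to 8.43 in siNPM1c and 7.87 to 8.74 in siControl. Below these, BID, BCL2, BCL2L11, BBC3 and BAD lay between 3.37 and 6.02 CPM per kb in siNPM1c libraries, where BCL2 and BCL2L11 overlapped with each other and with BAD. In siControl libraries BCL2L11 had rank 4, at 6.15 to 6.497, and BCL2 rank 8, at 3.74 to 3.88, without overlap. In siNPM1c libraries BCL2 had rank 5 and BCL2L11 rank 6. BCL2L1 and BCL2A1 were lowest in both groups. Division by the longest transcript instead of all exons put BAX level with MCL1 in siNPM1c libraries (32.8 CPM per kb each) and above it in siControl libraries (31.4 against 29.1), so the order of these levels depends on which transcripts are assumed.

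The genes whose log2 CPM over the 6 libraries was most like that of BCL2L11, among 7279 genes with at least 5 CPM, were ACAD8 (Pearson r 0.9997), NRAS (0.998) and MCM8 (0.996). For BCL2L1 they were ZNF787 (0.990), PBXIP1 (0.988) and ADGRA2 (0.986). Likeness of pattern did not mean a like size of change. ACAD8, NRAS and MCM8 had log2 fold changes of -1.04, -0.566 and -0.53, against -0.37 for BCL2L11. ZNF787, PBXIP1 and ADGRA2 had 0.168, 0.193 and 0.08, against 0.53 for BCL2L1. All these values come from the same 6 libraries, and the genes were picked as the highest of 7279 correlations.

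The other genes of the family, as a list of 12, held 8 tested genes, of which 2 rose and 2 fell. Their median log2 fold change was 0.01, while over all genes 21.3% rose and 21.4% fell. PMAIP1, the gene of the BH3-only protein NOXA, which neutralises MCL1, gave raw counts of 76, 110 and 85 in siNPM1c and 31, 77 and 40 in siControl libraries. Scaled by TMM it measured 5.58 ± 0.265 CPM in siNPM1c and 2.22 ± 0.536 CPM in siControl libraries (SD, n = 3 each), without overlap. PMAIP1 rose 2.42-fold (log2 fold change 1.27 ± 0.16, SE, edgeR adjusted p 3.75e-12) and by 0.81 log2 on library sizes alone, and 1.68% of all genes tested had a larger absolute change. PMAIP1 counts per MCL1 count were 0.0429, 0.0408 and 0.0461 in siNPM1c, against 0.0153, 0.0249 and 0.0182 in siControl libraries. The NOXA and BIM transcripts, both of BH3-only proteins, thus moved in opposite directions under both scalings. BCL2L15, a little-studied relative, rose on few counts, 14, 19 and 13 in siNPM1c and 3, 8 and 3 in siControl libraries (log2 fold change 2.08 ± 0.43, SE, edgeR adjusted p 1.56e-05). BNIP3 and BNIP3L, relatives that act mainly in removal of mitochondria, fell by 0.25 (SE 0.06, edgeR adjusted p 0.000383) and 0.16 (SE 0.05, adjusted p 0.00436) on the log2 scale. The BNIP3L call was lost without siControl replicate 2 (-0.13), with DESeq2 (-0.16) and with GC correction (-0.08). BCL2L10, BIK, HRK and BCL2L14 were below the filter, and BCL2L2, BOK, BMF and BCL2L13 did not pass the test.

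Of 12 mitochondrial apoptosis genes that act at or beyond the pore, all tested, 2 rose and 1 fell. The median over the list was 0.04 log2, while over all genes 21.3% rose and 21.4% fell. VDAC2, the membrane channel that holds BAK at the mitochondrion, fell to 11.9 ± 0.580 CPM in siNPM1c, against 17.4 ± 1.02 CPM in siControl libraries (SD, n = 3 each), a log2 fold change of -0.55 ± 0.08 (SE, edgeR adjusted p 1.63e-09). XIAP, which blocks caspases, rose 1.14-fold under TMM and was at -0.28 log2 on library sizes alone. Without siNPM1c replicate 3 the list held 5 called genes, and with GC correction 6.

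Of 13 transcription factors known to act on family genes, 7 rose and 2 fell under TMM, where 21.3% of all genes rose and 21.4% fell. On library sizes alone 1 was higher and 8 were lower, where 3.9% of all genes were higher and 71.5% lower. Over the list the median was 0.25 log2 under TMM. SPI1, encoding PU.1, rose 1.56-fold to 124 ± 1.802 CPM in siNPM1c, against 79.6 ± 1.65 CPM in siControl libraries. STAT3 rose 1.33-fold, FOXO3, a known activator of the BIM gene, 1.19-fold and ATF4, which drives stress-responsive genes, 1.19-fold under TMM. On library sizes alone the log2 fold change was -0.06 for STAT3, -0.22 for FOXO3 and -0.22 for ATF4, while SPI1 remained higher. MYC, named after its values were seen because of the E-boxes of BAX, was lower by 0.13 log2 (SE 0.05, edgeR adjusted p 0.0271), a call lost without siNPM1c replicate 1 (-0.12), without siNPM1c replicate 2 (-0.11), without siControl replicate 3 (-0.10) and with DESeq2.

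MCL1 protein is turned over by ubiquitin ligases, and of 6 tested genes of its turnover 0 rose and 2 fell. The list's median was -0.13 log2, while over all genes 21.3% rose and 21.4% fell. HUWE1, a ligase known to mark MCL1 for degradation, averaged 195 ± 6.52 CPM in siNPM1c and 228 ± 1.04 CPM in siControl libraries, a log2 fold change of -0.23 ± 0.02 (SE, edgeR adjusted p 6.99e-16). TRIM17, reported in mouse neurons to act on MCL1, fell by 0.34 log2 (SE 0.11, edgeR adjusted p 0.00987), a call lost without siControl replicate 2 (-0.26) and with DESeq2 (-0.33).

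**Figure D4:**
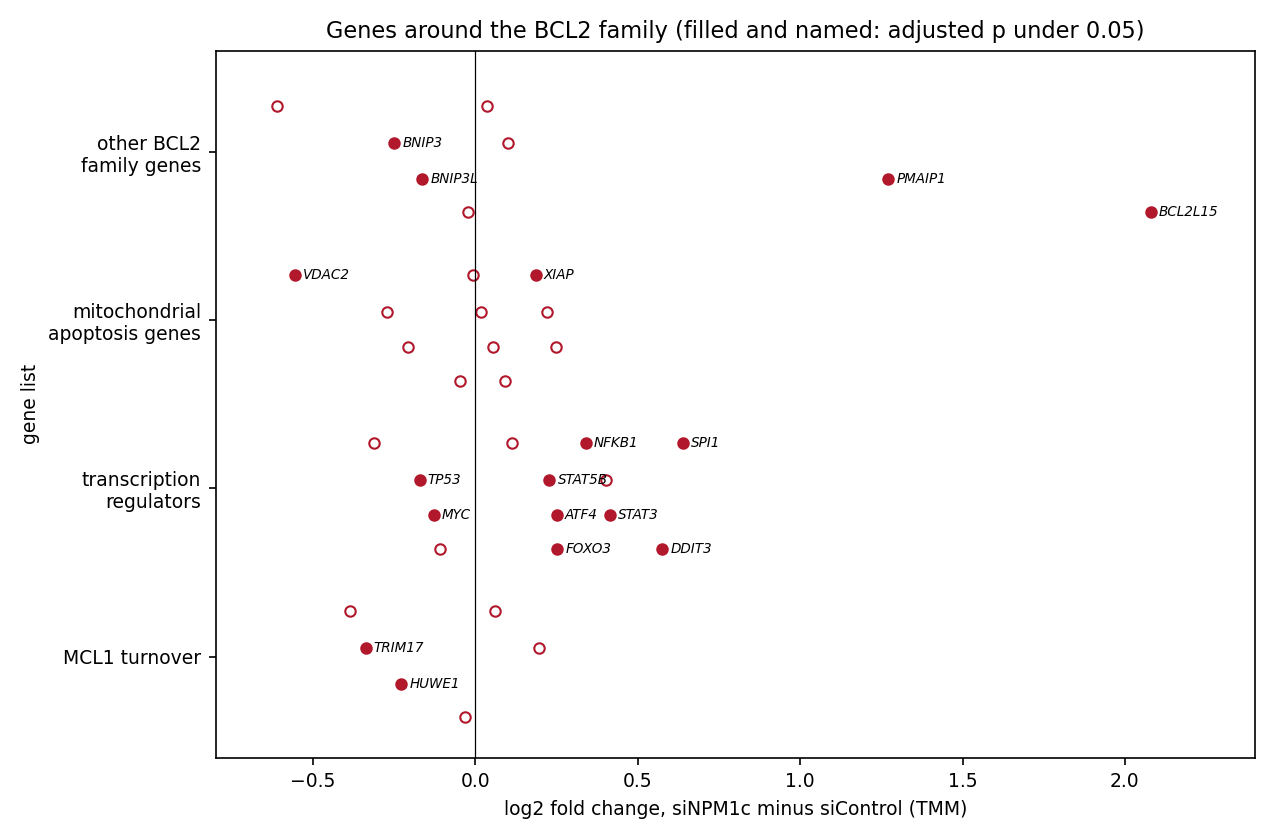
Log2 fold change (siNPM1c minus siControl, TMM) of tested genes reported here from the 4 related lists, 1 point a gene, filled and named at an adjusted p under 0.05, with rows within a list staggered for legibility. PMAIP1 at 1.27 and BCL2L15 at 2.08 lie farthest right and VDAC2 at -0.55 is the lowest named gene; of the genes described in the text, XIAP, STAT3, FOXO3 and ATF4 turn negative on library sizes alone.

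Against 21.3% higher and 21.4% lower over all genes tested, monocyte and macrophage markers moved with the groups under TMM, 6 of 8 higher and 1 lower. The lower marker was CX3CR1, with a log2 fold change of -1.57 ± 0.22 (SE, edgeR adjusted p 9.72e-11). The summed level of this list was 212 to 221 CPM in siNPM1c and 115 to 125 CPM in siControl libraries, and no marker was at 0. The other myeloid list, which held LYZ, had 4 of 6 tested markers higher and 0 lower. It summed to 764 to 780 CPM in siNPM1c and 354 to 358 CPM in siControl libraries. LYZ made up most of that difference, with 401 ± 8.35 CPM in siNPM1c and 80.2 ± 0.805 CPM in siControl libraries (SD, n = 3 each), and CD33 and FLT3 were not called. The calls and CPM of both marker lists hold relative to TMM scaling. Library sizes alone moved the median gene by -0.47 log2, a larger step than the rise of AZU1 (0.45) or ANPEP (0.22). LYZ (2.3) and MPO (1.3) rose by more than that step. In bulk RNA, a different share of cells in one state and a different level per cell cannot be told apart, and the part of these markers in the family values was not tested. The same holds for the ribosomal RNA share given above.

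On library sizes alone, 0 of 10 family genes were called higher, where 3.9% of all genes were, and 7 were called lower, where 71.5% of all genes were. That share of the family lay near the background. Relative to the median gene at -0.48 log2 under that scaling, BCL2 (-0.09), BCL2L1 (0.06) and MCL1 (-0.29) lay above it and BCL2L11 (-0.84) below it. In each of these genes, library sizes alone differed from TMM by nearly the shift of the median gene (-0.47 log2). These positions therefore restate the TMM result and are no second test of it.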

How the data were processed

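RNA of OCI-AML3 cells was sequenced in 3 siNPM1c and 3 siControl libraries. The deposited table gives, for each Entrez identifier, the authors' raw read count in each library, in whole numbers and not normalized. Per the submitters' processing notes, the tools were STAR 2.7.5a, cutadapt 2.6, CASAVA 1.8 and DESeq2 1.34.0 and the builds mm10 and hg38, with no roles stated. The counting tool, its annotation and its strand setting are not given in the sources used here. Columns were matched to samples through their names in the labels.

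Of 28307 identifiers, 28261 were matched to symbols in NCBI RefSeq tables (GRCh38.p14). Pairs of libraries of a group differed by more than sampling noise (chi-square per degree of freedom 1.46 to 2.36), so none was counted as a copy.

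Counts were fitted in R 4.3.3 with edgeR 4.0.16 (filterByExpr defaults, TMM, glmQLFit with robust = TRUE, glmQLFTest, two-sided) across all genes, with Benjamini-Hochberg adjustment. SE is the absolute log2 fold change over the square root of F, and the method was tested on simulated data. There the groups shared their composition apart from a small set of changed genes, so the choice of scaling was not tested. CPM used TMM-adjusted library sizes. Exon length and GC content came from GENCODE 29, and 98.2% of tested genes had a GC value. Alternatives were DESeq2 1.42.0, limma-voom (limma 3.58.1), other scalings and filters, protein-coding genes only, a lowess GC correction (span 0.3), the replicate number as a block and leaving out each library.

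The family genes, the lists and the tests were chosen with earlier results of these data known. All 10 family genes are named whatever their p, with NPM1, up to 4 called genes of each related list by smallest adjusted p, and the 3 genes most correlated with the called family genes of largest rise and fall. Some genes of these lists are not reported here by name, though the list counts and medians include them.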

Additional observations from a re-analysis of the deposited data

How the results depend on the processing

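The calls of BCL2, BCL2L1, MCL1 and BCL2L11 kept their direction and their side of the threshold under every alternative run except library sizes alone. There only BCL2L11 was called in its direction, and MCL1 was called in the opposite direction. On library sizes alone 9758 genes were called, 505 higher and 9253 lower, or 3.9% and 71.5% of all genes. Among them were 7 family genes, 8 other family genes, 10 mitochondrial apoptosis genes and 6 MCL1 turnover genes. The list of transcription factors also had 9 calls there, with 1 higher and 8 lower in place of 7 higher and 2 lower. The log2 fold change was then -0.088 for BCL2, -0.29 for MCL1, -0.092 for BCL2A1, -0.40 for BAX, -0.37 for BID, -0.40 for BBC3, -0.22 for ATF4, -0.22 for FOXO3, -0.056 for STAT3 and -0.28 for XIAP. By construction that setting counts ribosomal RNA as depth with no further factor.

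With GC correction BAX was at -0.022 and BBC3 at -0.045, and 6 mitochondrial apoptosis and 4 MCL1 turnover genes were called. BAK1 was called at -0.47 on library sizes alone. Otherwise it was not called, and was at 0.0068 in the DESeq2 test, 0.010 over protein-coding genes alone and 0.0030 when scaled by DESeq2 size factors, and between -0.039 and 0.040 when a library was left out. A filter of 5 CPM left 2 other family genes called, because PMAIP1 and BCL2L15 then fell outside the test, and DESeq2 left 1 MCL1 turnover gene. Leaving out 1 library gave 3 to 5 mitochondrial apoptosis and 1 to 3 MCL1 turnover genes, with the 5 obtained without siNPM1c replicate 3 and the 1 without siControl replicate 2. The cause was not tested. Without MCL1 in the sums, the survival to death ratio of siNPM1c over siControl was 1.36 in place of 1.23.

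Replicate numbers did not pair the libraries, with correlations of same-numbered deviations from -0.00408 to 0.0193. The fit with the replicate block called 5586 genes and 4 of the 10 family genes. Counts of 7 to 22 per library limit BCL2A1.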
